A study of Mus musculus with 5 samples.

Results

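The cells described here are the dermal gamma-delta T17-like cells of mouse skin, taken by their own transcripts from all 5 libraries of a single-cell RNA sequencing series. A cell counted as one when it had at least 1 UMI (unique molecular identifier, one captured transcript) of Cd3d, Cd3e and Cd3g together and at least 2 UMIs of Cd163l1, Blk, 5830411N06Rik and Ccr6 together. It also had to have fewer than 5 UMIs of Ctla2a, a gene abundant in epidermal gamma-delta T cells, and 0 UMIs of Foxp3 and of Cd8b1. By this rule 89 cells were found among 6162 kept cells, of which 2662 had a Cd3 UMI, so 2573 other Cd3-positive cells remained for comparison. The cells were thus selected on the UMIs of these 10 genes, which are given as a description and were not tested.

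The study sorted live CD45-positive cells, that is leukocytes, from digested C57BL/6 dermis and made 3' droplet libraries from them. One library, labelled P50_Depil5D, came by its label from skin 5 days after depilation (hair removal, which starts a new round of hair growth). The others, labelled P45, P50, P63 and P80 for postnatal days 45, 50, 63 and 80, came from skin in telogen, the resting phase of the hair follicle. Each group is 1 library, no label gives the number, age at depilation or sex of the mice, and it is not stated if day 50 of the depilated group is the day of depilation or of collection.

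Gamma-delta T cells carry a receptor of gamma and delta chains, and those of mouse dermis include cells set in the thymus to make interleukin 17 (IL-17). These cells depend on transcription factors that include Sox13 and Maf, live on IL-7, and release IL-17A and IL-17F when IL-23 and IL-1 reach them. In mice, the scavenger receptors SCART1 (Cd163l1) and SCART2 (5830411N06Rik) are known from cells with a Vγ6 and a Vγ4 chain, and the kinase Blk and the chemokine receptor Ccr6 mark the same IL-17-producing lineage. The deposited gene table held 0 genes of T cell receptor chains, so the gamma-delta receptor itself could not be checked and the name rests on the transcripts below.

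Levels are given as CPM, UMIs of a gene per 1000000 UMIs of the summed cells, and intervals are exact 95% intervals that cover counting error only. Kept cells had medians of 1484.5, 2550, 1452, 1920.5 and 1236 UMIs in P50_Depil5D, P45, P50, P63 and P80. The gamma-delta T17-like cells held 202714 UMIs, with a median of 1972 UMIs and 847 genes a cell, against 1736 UMIs in the other Cd3-positive cells. Barcodes shared between libraries were seen for 0 of the 89 cells and for 178 of the 2573 other Cd3-positive cells. UMIs of another lineage (at least 3 of Krt5, Krt14, the C1q genes and Lyz2 together, or over 10 of Cd74) were present in 17 of the 89 cells (19.1%), 16 of them in P45 and 1 in P50, and in 842 of the 2573 others (32.7%).

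P50_Depil5D held 9 of the cells, P45 46, P50 18, P63 12 and P80 4. As a share of Cd3-positive cells this was 1.17% (0.534 to 2.20) in P50_Depil5D, 5.67% (4.18 to 7.48) in P45, 2.55% (1.52 to 4.00) in P50, 5.56% (2.90 to 9.50) in P63 and 2.56% (0.703 to 6.43) in P80. The shares of P45 and P63 were the highest and nearly equal, that of P50_Depil5D was the lowest, and its interval overlaps that of P50. The ratio of P50_Depil5D to P50 was 0.457 (0.181 to 1.07), and that of P80 to P45 0.453 (0.118 to 1.24), so neither interval leaves out a ratio of 1. With 1 UMI of the gate genes in place of 2, the ratio of P50_Depil5D to P50 was 0.564 (0.343 to 0.915), which does. Both have 1 library a group and no test.

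**Figure D1:**
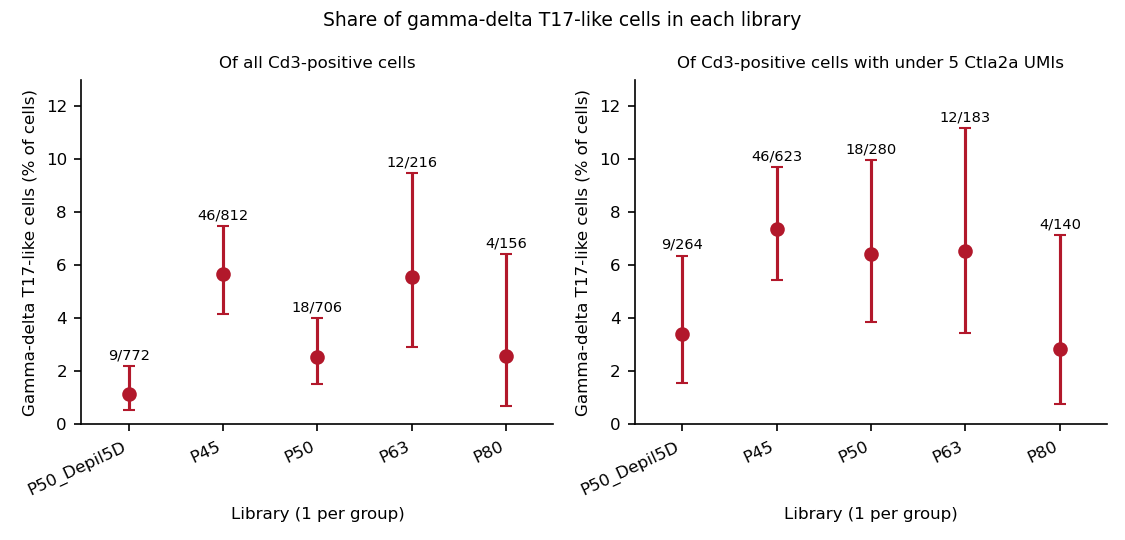
Gamma-delta T17-like cells as a percentage of all Cd3-positive cells (left) and of Cd3-positive cells with fewer than 5 Ctla2a UMIs (right), by library, with exact 95% Clopper-Pearson intervals for counting error. On the left P45 (5.67%) and P63 (5.56%) stand highest and P50_Depil5D (1.17%) lowest, while on the right the 5 libraries lie between 2.86% and 7.38%.

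The denominator differed between libraries, because Ctla2a-high cells made up 508 of 772 Cd3-positive cells in P50_Depil5D, 189 of 812 in P45, 426 of 706 in P50, 33 of 216 in P63 and 16 of 156 in P80. Among Cd3-positive cells with fewer than 5 Ctla2a UMIs, the gamma-delta T17-like share was 3.41% in P50_Depil5D, 7.38% in P45, 6.43% in P50, 6.56% in P63 and 2.86% in P80. On this base P50 stood beside P45 and P63, with P50_Depil5D and P80 below and the intervals overlapping. With every cell thinned to 1000 UMIs, where shallower cells drop out, the ratio of P80 to P45 was 1.623 (0.303 to 5.67), the opposite direction, so 4 cells of P80 give no order of these 2 time points.

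The genes that chose the cells are described first, with no test. Cd163l1 gave 108 UMIs in 42 of the 89 cells, with 1046 CPM in P50_Depil5D, 285 in P45, 1454 in P50, 570 in P63 and 1190 in P80, or 533 CPM over all, against 16.3 CPM in the other Cd3-positive cells. Blk, a Src-family kinase, had 56 UMIs in 40 cells and 276 CPM, against 4.77. 5830411N06Rik had 50 UMIs in 31 cells and 247 CPM against 4.91, and Ccr6, the receptor of the chemokine CCL20, 60 UMIs in 37 cells and 296 CPM against 10.2. Ccr6 was at 0 UMIs in the 4 cells of P80. Cd163l1 (ENSMUSG00000025461, chr7:140218267-140231145, plus strand) and 5830411N06Rik (ENSMUSG00000054672, chr7:140247284-140300736, plus strand; both mm10) are neighbouring paralogs, so some reads may be placed on the wrong one of them.

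The cells sat close to the threshold of the rule, since 34 had exactly 2 UMIs of the gate genes, 29 had 3 and 26 had 4 or more. Just outside were 130 cells that met every other condition with 1 UMI, and 1113 had 0. Il7r stood at 412 CPM in the cells with 2 UMIs, 429 with 3 and 621 with 4 or more, against 229 with 1 and 74.6 with 0. Actn2 stood at 332, 206 and 217 CPM inside the gate, against 50.4 and 6.71 outside. Both genes were thus already higher with 1 UMI than with 0, and higher again inside the gate. Il17a did not follow that order, with 212 CPM at 2 UMIs, 79.4 at 3 and 0 at 4 or more, against 75.6 at 1 UMI and 6.98 at 0. Il17f stood at 106, 143 and 15.5 CPM inside the gate, against 123 and 4.03 outside, so cells with 1 UMI of the gate genes lay within the range of those inside for both cytokines.

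The other 3 genes of the label, which the rule does not use, were high in every library. They were chosen with earlier results of these data known. Their levels here and their tests below are therefore no independent support of the name. Il7r (ENSMUSG00000003882), the receptor chain for IL-7, stood at 597, 454, 565, 526 and 397 CPM in P50_Depil5D, P45, P50, P63 and P80, against 64.9, 76.2, 85.5, 59.1 and 42.1 CPM in the other Cd3-positive cells. Il18r1, a chain of the IL-18 receptor, stood at 896, 549, 323, 833 and 992 CPM, against 97.4, 144, 84.8, 204 and 60.5. Rora, a nuclear receptor, stood at 448, 176, 727, 438 and 397 CPM, against 145, 93.3, 111, 150 and 150. For each gene the lowest value in these cells lay above the highest in the others, most narrowly for Rora (176 against 150 CPM). The share of all genes that do so was not counted. In the 4 cells of P80, 1 UMI is 198 CPM, and Il7r gave 2 UMIs in 1 cell there. Il7r was detected in 56.2% of the cells and 14.0% of the others, and after thinning to 1000 UMIs in 39.5% of 81 cells, 8.80% of 2250 others, 3.93% of 331 macrophage-gate cells (at least 5 UMIs of C1qa, C1qb and C1qc) and 1.04% of 481 keratinocyte-gate cells (at least 10 UMIs of Krt5 and Krt14).

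Of the transcripts that define IL-17 output, few were captured. Il17a (ENSMUSG00000025929, chr1:20730905-20734496, plus strand, mm10) gave 0 UMIs in P50_Depil5D, 8 in P45, 1 in P50, 12 in P63 and 0 in P80, which is 104 CPM (64.1 to 158) over all, against 9.96 CPM in the other Cd3-positive cells. The 12 UMIs of P63 came from 1 cell, and the 21 UMIs in all from 8 of the 89 cells. Il17f (ENSMUSG00000041872, chr1:20777146-20790617, minus strand) gave 2, 12, 0, 4 and 0 UMIs in the same order, or 88.8 CPM over 10 cells. At least 1 of these cytokine transcripts was seen in 14 cells and both in 4, so 75 cells showed neither. After thinning to 1000 UMIs, Il17a was seen in 3 of 81 cells (3.70%), against 11 of 2250 other Cd3-positive cells (0.489%), and in none of the 331 macrophage-gate or 481 keratinocyte-gate cells, a count of 0 that allows up to 0.906% and 0.624%.

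The promoters of Il17a and of Actn2, the gene with the smallest adjusted p below, are shown as the regulatory sequence in front of a defining product and of a less familiar marker of these cells. The 250 bases before the RefSeq start are given 5' to 3' on the gene's strand (GRCm38.p6), with the half-site of nuclear receptors, AGGTCA or its reverse complement TGACCT, in capitals. For Il17a this is chr1:20730655-20730904 (plus strand), and for Actn2 chr13:12340733-12340982 (minus strand).
Il17a: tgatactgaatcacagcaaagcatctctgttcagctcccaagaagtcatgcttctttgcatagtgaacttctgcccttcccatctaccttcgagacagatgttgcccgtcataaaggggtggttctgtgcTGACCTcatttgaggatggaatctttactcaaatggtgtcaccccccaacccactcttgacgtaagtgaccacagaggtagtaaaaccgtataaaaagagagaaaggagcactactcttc
Actn2: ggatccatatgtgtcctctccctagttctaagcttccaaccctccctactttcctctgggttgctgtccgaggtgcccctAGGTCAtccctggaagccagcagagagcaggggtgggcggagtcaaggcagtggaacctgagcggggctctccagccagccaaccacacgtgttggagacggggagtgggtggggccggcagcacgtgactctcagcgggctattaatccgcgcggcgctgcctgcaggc
The half-site stood 120 bases before the start of Il17a and 170 before that of Actn2. Either spelling was found in 14% of all 32851 promoters (4607) and in 5 of the 42 promoters (11.9%) of the genes higher in gamma-delta T17-like cells, those of Actn2, Il17a, Limd2, Uhrf2 and Zap70. These shares are alike, and nothing about binding is drawn from a match.

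Receptors and transcription factors of the IL-17 programme gave few UMIs. Sox13, a factor that sets the programme in the thymus, gave 7 UMIs, or 34.5 CPM against 1.26 in the other Cd3-positive cells. Il23r, the IL-23 receptor, gave 13 UMIs in 10 cells, with 6 in P50_Depil5D, 5 in P45, 1 in P50, 0 in P63 and 1 in P80, or 64.1 CPM against 2.67. Il1r1, the IL-1 receptor, gave 7 UMIs and 34.5 CPM against 9.26, and Zbtb16 (PLZF, a factor of innate-like T cells) 5 UMIs and 24.7 CPM against 14.2. Zbtb16 was at 0 UMIs in P50 and P80. Il23r, Sox13 and Il17f did not reach the filter on low counts in enough libraries to enter the test across genes.

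Although they carried 2.77% of the UMIs of Cd3-positive cells, the gamma-delta T17-like cells held 22.8% (14.7 to 32.8) of their Il17a UMIs (21 of 92) and 18.6% of Il17f (18 of 97). They held 40.6% of Il23r (13 of 32), 43.8% of Sox13 (7 of 16) and 47.3% of Actn2 (52 of 110). Most Il17a and Il17f UMIs of the T cells thus lay outside the gate. Of the 21 Il17a UMIs inside it, 12 came from 1 cell of P63, which the interval of that share does not take into account.

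**Figure D2:**
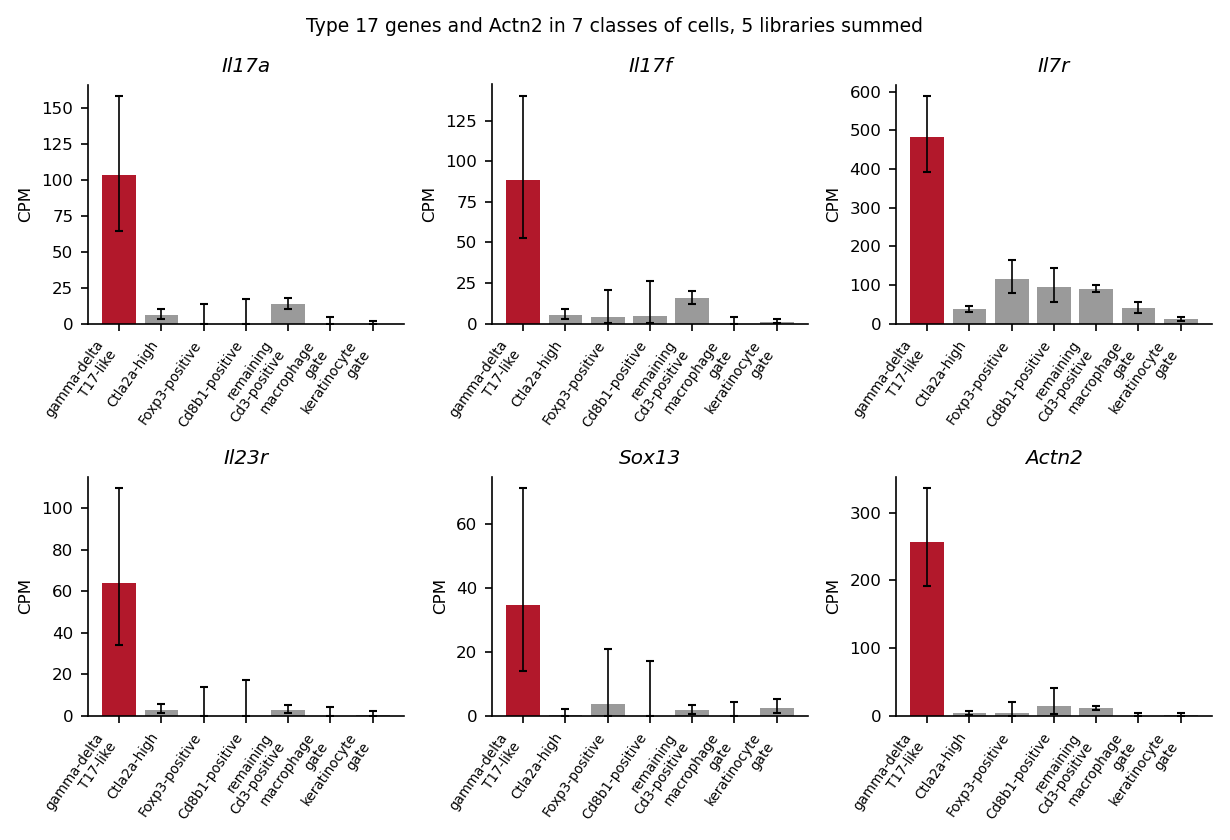
Level in CPM of 6 genes in gamma-delta T17-like cells, the 4 other classes of Cd3-positive cells and the macrophage and keratinocyte gates, over all 5 libraries, with exact 95% Poisson intervals. In each panel the gamma-delta T17-like bar is the highest, for example 104 CPM of Il17a against 14.4 in the remaining Cd3-positive cells and 257 CPM of Actn2 against 10.6. In the Il17a bar, 12 of the 21 UMIs came from 1 cell.

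A test across all genes set the gamma-delta T17-like cells against the other Cd3-positive cells within P45, P50 and P63, the libraries with at least 10 cells in each arm. Of 4511 genes tested, 39 were higher (0.865%) and 104 lower (2.31%) at an adjusted p under 0.05 (edgeR quasi-likelihood test with library as a block, Benjamini-Hochberg), and the median log2 fold change of all genes was -0.17. These p-values rest on a spread over 3 libraries that the fit estimates largely across genes. They do not measure each gene's own spread between libraries. The numbers were 17 higher and 99 lower without P45, 46 and 74 without P50, 19 and 52 without P63, and 12 and 31 without cells that held UMIs of another lineage.

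Most single calls among the higher genes depended on such choices, though every one that could be tested kept its direction. Of the 39 genes, 14 were still called without P45, 29 without P50, 10 without P63, 9 without cells that held UMIs of another lineage, 3 with 3 or more Cd3 UMIs asked of both arms and 1 with 3 or more UMIs of the gate genes. The filter on low counts asked for about 22.7 CPM in 3 library sums, and 17 of the 39 needed their own sums in gamma-delta T17-like cells to reach it, Actn2, Il17a, Il18rap, Il2ra, Ckb and Serpinb1a among them. Likewise 75 of the 104 lower genes needed the sums of the other cells. These counts are therefore a description, and without the filter 9 of the 39 and 85 of the 104 were still called. Actn2, Il7r, Ltb and Znrf1 were called without any 1 library and without the filter, and Klrd1 and Fam25c were so among the named lower genes. The call was lost without P45 or P63 for Zap70, Il18rap, Il2ra, Gpr183, Cxcr6 and Pxdc1, without P63 for Il17a, Il18r1, Maf, Ckb and Bcl2a1b, and without P50 or P63 for Rora. It was lost without P50 for Ramp1 and Bcl2a1d, without P45 for Ikzf3, and without any 1 of the 3 for Serpinb1a. Among lower genes it was lost without P50 for Xcl1 and Nkg7, without P50 or P63 for Jun, Stmn1 and Cd9, without P63 for Egr1 and Lgals3, without P45 or P63 for Fabp5, and without P45 for Il1b.

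The smallest adjusted p was that of Actn2 (ENSMUSG00000052374), which encodes an actin-binding α-actinin best known from muscle. It stood at 448 CPM in P50_Depil5D, 241 in P45, 404 in P50, 131 in P63 and 0 in P80, against 5.73, 9.04, 12.01, 6.72 and 0 CPM in the other Cd3-positive cells. Its 52 UMIs came from 31 cells (34.8%, against 2.06% of the others), and it was high in every library but P80, where both groups were at 0. The log2 fold change was 4.60 ± 0.50 (SE; adjusted p = 7.2e-17, edgeR).

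Among cytokine genes 9 of 21 were tested, 2 were higher and 1 lower, with a median log2 fold change of 0.66 against -0.17 for all genes. Ltb, a lymphotoxin subunit, stood at 1718, 454, 1009, 833 and 794 CPM in P50_Depil5D, P45, P50, P63 and P80, against 199, 112, 190, 144 and 121 in the others. It was above the others in every library and rose by 2.05 ± 0.35 (adjusted p = 6.6e-07, edgeR). Il17a rose by 3.10 ± 0.49 (adjusted p = 8.5e-08), but the change was 1.996 with an adjusted p of 0.488 without P63 and 5.01 without P45. Il1b, the IL-1β transcript of myeloid cells, fell by 2.80 ± 0.57, with its 11 UMIs all in P45. Tnf stood at 197 CPM against 90.1 and did not pass (log2 1.14 ± 0.45, adjusted p = 0.19). Ifng had 0 UMIs in the 89 cells, against 2.72% of the others with one, and Il22 was at 0 as well.

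Of 28 cytokine receptor genes 16 were tested, 4 were higher and 0 lower, with a median of 0.87. Il7r rose by 2.54 ± 0.38 (adjusted p = 6.6e-09, edgeR), Il18r1 by 1.72 ± 0.36, its partner chain Il18rap by 2.07 ± 0.59 and Il2ra, the high-affinity IL-2 receptor chain, by 1.95 ± 0.57. In the 3 fitted libraries Il18rap rested on 10 UMIs and Il2ra on 14. Of 20 chemokine and lipid-attractant receptor genes 8 were tested and 2 were higher, with a median of 1.17. Cxcr6, a receptor of tissue-resident lymphocytes, stood at 1046, 424, 323, 482 and 794 CPM in P50_Depil5D, P45, P50, P63 and P80, against 174, 58.1, 186, 121 and 73.7. It was above the others in each of the 5 libraries, yet the change of 1.81 ± 0.38 was 0.96 with an adjusted p of 0.519 without P45. Gpr183, the oxysterol receptor EBI2, rose by 1.88 ± 0.51 but was at 0 UMIs in P50_Depil5D.

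**Figure D3:**
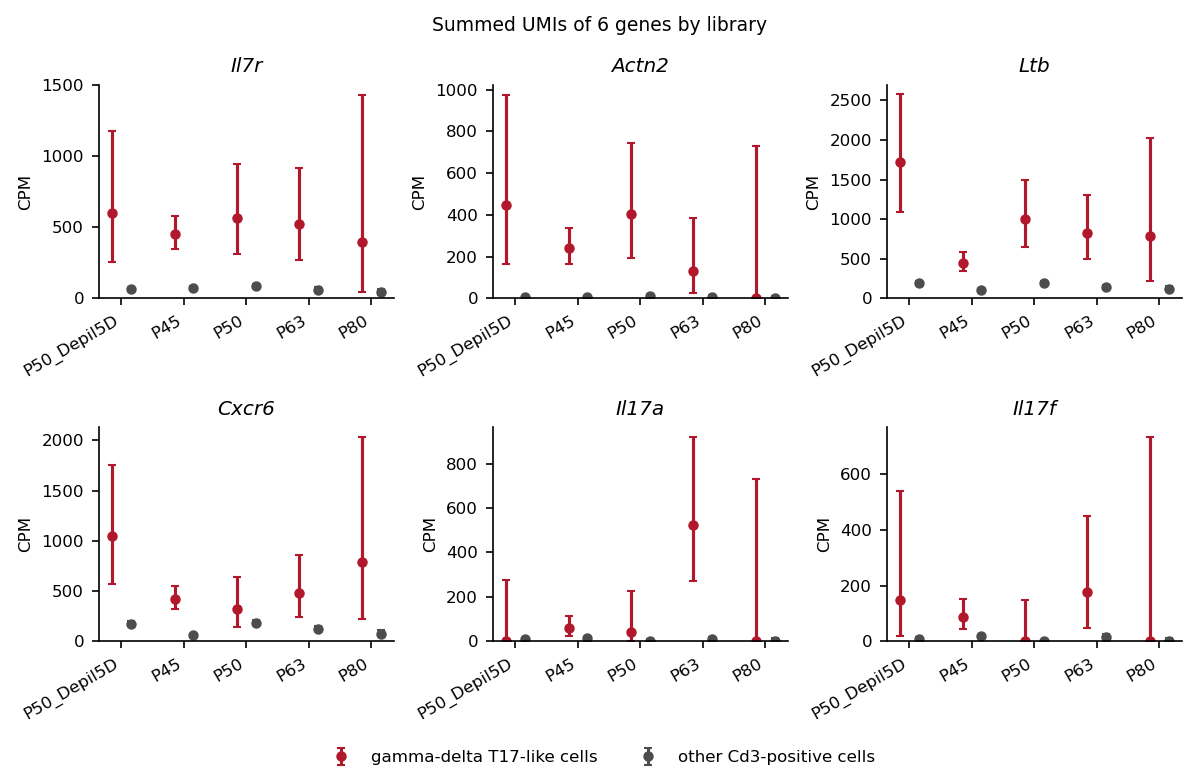
Level in CPM of 6 genes by library in gamma-delta T17-like cells and in other Cd3-positive cells, with exact 95% Poisson intervals for counting error. Il7r, Ltb and Cxcr6 were above the other Cd3-positive cells in all 5 libraries and Actn2 in 4, whereas most UMIs of Il17a and Il17f lay in P45 and P63. P50_Depil5D had 2 Il17f UMIs, which is 149 CPM against 87.8 in P45, and P50 had 1 Il17a UMI. Il7r in P80 was 2 UMIs in 1 cell.

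Of 14 transcription factors of the IL-17 programme 8 were tested, and Rora and Maf were higher, while the median was -0.32. Maf, which the lineage needs, stood at 299, 454, 444, 833 and 397 CPM in P50_Depil5D, P45, P50, P63 and P80, against 101, 151, 117, 240 and 203, and rose by 1.497 ± 0.35 (adjusted p = 0.0014, edgeR). It was high in every library, with 2 UMIs in P80, and also high in Foxp3-positive cells (410 CPM) and in the macrophage gate (509 CPM). Rora rose by 1.44 ± 0.38, with 0.90 and an adjusted p of 0.448 without P50. Of 18 factors of other lineages 13 were tested, and Ikzf3 (Aiolos, a zinc-finger factor of lymphocytes) rose by 2.20 ± 0.50, but the change was 0.97 with an adjusted p of 0.947 without P45. The list median was -0.08.

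Of 18 further genes reported in IL-17-producing gamma-delta cells, 4 belong to the rule and 11 were tested. Actn2, Ckb, Pxdc1, Serpinb1a, Bcl2a1b and Bcl2a1d were higher, 0 were lower, and the median was 1.73. Ckb, the brain-type creatine kinase, stood at 373, 176, 323, 307 and 198 CPM, against 20.4, 64.2, 30.8, 20.2 and 36.8, and rose by 2.30 ± 0.47. Bcl2a1b and Bcl2a1d, anti-apoptotic BCL2 relatives of near-identical sequence whose reads may be split between copies, rose by 1.73 and 1.90. Serpinb1a, a protease inhibitor, rose by 1.91 ± 0.55 from 18 UMIs in the 3 fitted libraries. Because this list was assembled with results of these data known, its count describes it and is no independent support.

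In T cell receptor signalling, 22 of 29 genes were tested and Zap70, the proximal kinase of the receptor, alone was higher (1.58 ± 0.46, and 0.70 with 3 or more Cd3 UMIs in both arms), with a median of 0.16. Ramp1, the co-receptor for the neuropeptide CGRP, stood at 1419, 307, 767, 307 and 397 CPM in P50_Depil5D, P45, P50, P63 and P80, against 66.8, 121, 75.0, 68.5 and 76.3. It was above the others in every library and rose by 1.98. It was the 1 higher gene of 23 adhesion and surface genes tested, beside Cd9 and Lgals3, which fell by 1.43 and 1.57. Znrf1, an E3 ubiquitin ligase, stood at 672, 219, 686, 219 and 198 CPM, against 94.2, 51.0, 85.5, 38.9 and 65.8, and rose by 2.29 ± 0.42. It was above the others in every library, but its 198 CPM in P80 is 1 UMI. The P80 value of Ramp1 likewise rests on few UMIs.

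**Figure D4:**
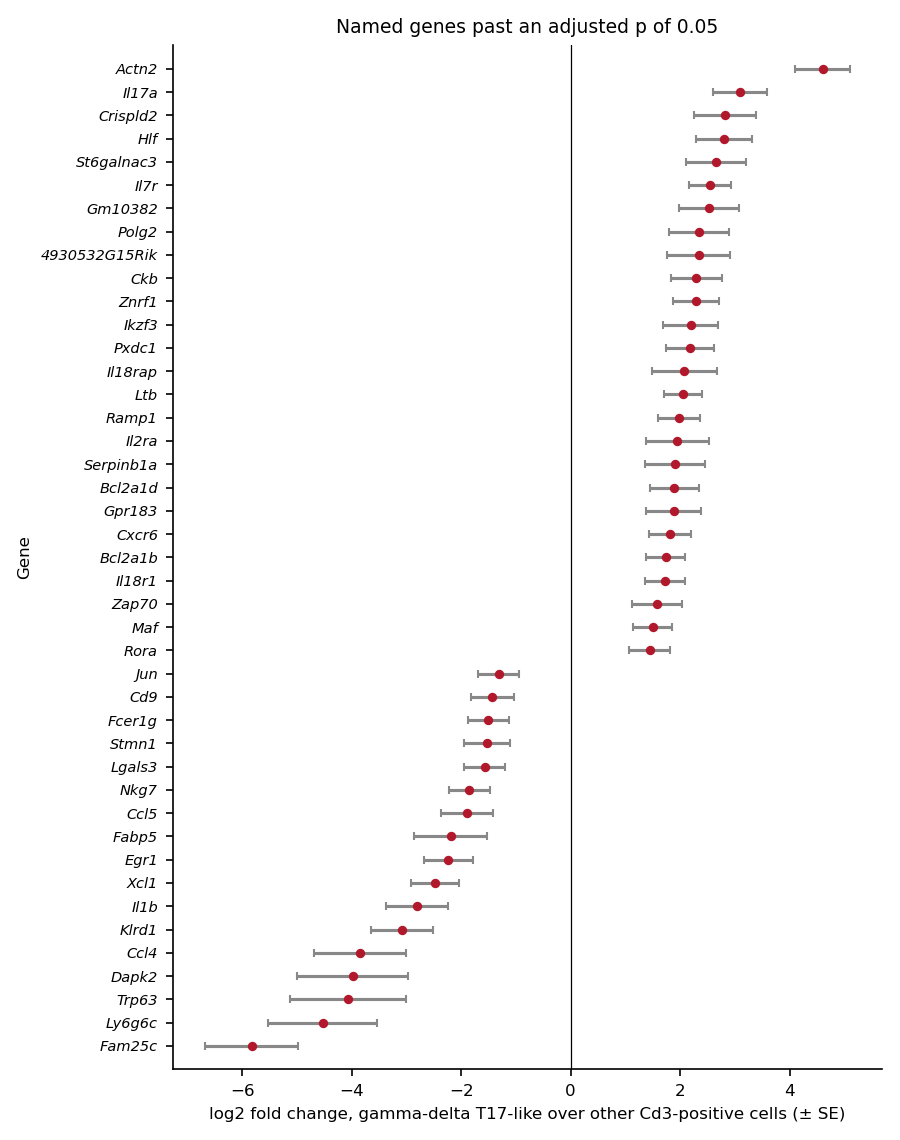
Log2 fold change with its SE of the named genes, gamma-delta T17-like over other Cd3-positive cells in P45, P50 and P63 (edgeR), without genes at 0 UMIs in gamma-delta T17-like cells. Actn2 stands highest at 4.60, and Klrd1, Xcl1 and Nkg7 are among the genes below 0 at -3.09, -2.47 and -1.86.

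Cytotoxic and NK-receptor genes were lower. Of 22 such genes 11 were tested, 6 were lower and 0 higher, with a median of -1.50. Klrd1, the CD94 chain of NK receptors, stood at 299, 36.6, 0, 43.8 and 198 CPM in P50_Depil5D, P45, P50, P63 and P80, against 501, 201, 633, 103 and 147, and fell by 3.09 ± 0.57 (adjusted p = 7.6e-06, edgeR). It was lower in 4 libraries and higher in P80, where it is 1 UMI. Xcl1, a chemokine that attracts dendritic cells, stood at 0, 43.9, 40.4, 438 and 0 CPM, against 1755, 356, 2029, 283 and 237, and fell by 2.47 ± 0.44 although P63 was higher. Nkg7, a cytotoxic granule protein, fell by 1.86 ± 0.37, with P63 again the library above its reference, at 745 against 598 CPM.

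Of 20 immediate early genes all were tested, and Jun and Egr1 were lower, by 1.32 ± 0.38 and 2.24 ± 0.45, with a median of -0.49. Jun turned to 0.40 without cells that held UMIs of another lineage. In lipid and glucose metabolism 13 of 22 genes were tested and Fabp5, a fatty acid binding protein, was lower, by 2.19 ± 0.66, but it was 0.11 without P45. Of 14 cycling genes 11 were tested and Stmn1, a microtubule regulator, fell by 1.53 ± 0.43, and Mki67 had 0 UMIs in the 89 cells. No gene passed among 14 tested JAK-STAT genes (median 0.06) or 8 tested growth factor genes (median -1.24), of which Areg (amphiregulin) stood at 83.9 CPM against 529.

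Markers of other cells moved with the lower genes. All 8 keratinocyte markers were lower, as were all 5 tested dendritic cell markers, 2 of 8 tested macrophage markers (Lyz2 and Apoe) and 5 of 8 tested markers of dendritic epidermal T cells. The sum of the 10 markers of dendritic epidermal T cells was nevertheless higher in gamma-delta T17-like cells of P63, at 5566 CPM against 2790, and lower in the other 4 libraries. Gzmc, 1 of the 10, gave 68 UMIs in 3 of the 39 cells with Cd163l1 but not 5830411N06Rik, over all libraries. Nkg7, Xcl1 and Fcer1g were also above the others in P63, with 17, 10 and 18 UMIs. The P63 sum without Gzmc was not counted. Set among the keratinocyte gate, the macrophage gate and Ctla2a-high cells only, 61 of the 104 lower genes were highest in the first of these, 26 in the macrophage gate and 17 in Ctla2a-high cells. The same shares over all tested genes were not counted, so these counts are a description and the source of the lower genes was not tested. Of the 104, 6 were at 0 UMIs in gamma-delta T17-like cells. The summed level of 8 keratinocyte markers was 149, 1617, 202, 482 and 1389 CPM in the gamma-delta T17-like cells of P50_Depil5D, P45, P50, P63 and P80, and 1214 CPM over all against 6254 CPM in the other Cd3-positive cells. The sum of 9 macrophage markers was 2215 CPM against 6882, and that of 8 dendritic cell markers 9516 CPM against 16720, with 13672 CPM in P45 and at most 3571 elsewhere. Fibroblast markers ran the other way, with 1283 CPM against 430, of which P45 had 1880 and the other libraries at most 131, and 188 of the 260 UMIs lay in 1 cell. The part of such foreign UMIs in the fold changes was not tested beyond the count without the cells that held them. Trp63, a keratinocyte transcription factor, gave 1 UMI, or 4.93 CPM against 82.2. Ncr1, Klrb1c, Klra8, Eomes, Gzma and Klri2, defining genes of NK cells and ILC1, were at 0 UMIs, as were Izumo1r, Cd8a and Lef1. Foxp3 and Cd8b1 were at 0 because the rule asks for it.

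Ctla2a-high cells, in which the markers of dendritic epidermal T cells (the gamma-delta T cells of the epidermis) were concentrated, were the next reference. They are taken here as the other gamma-delta class of mouse skin, although their receptor could not be checked either. Their 10 markers summed to 1771 CPM in gamma-delta T17-like cells and 23028 CPM in Ctla2a-high cells, an outcome of the rule for Ctla2a itself. Of 1514 genes tested in P45, P50 and P63, 30 were higher (1.98%) and 48 lower (3.17%), with a median of -0.03. The filter on low counts was reached by 23 of the 30 only through their own sums in gamma-delta T17-like cells, and without it 12 of the 30 were still called. Actn2, Il7r, Ikzf3, Ckb, Pxdc1, Rora, Maf and Ramp1 were among the 23, so their changes below are a description. Markers of other cells also moved here, with Cd74, H2-Ab1, H2-Aa, Lyz2, Apoe, Krt14 and Perp lower and the fibroblast gene Col1a2 higher, and their part was not tested. Actn2 rose by 5.66 ± 0.70 (adjusted p = 0.00055, edgeR), Il7r by 3.54 ± 0.56, Ikzf3 by 3.497 ± 0.69, Ckb by 3.18 ± 0.64 and Pxdc1 by 3.01 ± 0.49. Rora, Ltb, Maf and Ramp1 rose by 2.43, 2.22, 2.04 and 2.58. Of 10 tested genes of the IL-17-producing gamma-delta list 6 were higher.

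Against the same cells, 5 of 8 tested cytotoxic and NK-receptor genes were lower, with a median of -2.49. Of the 48 lower genes, 34 reached the filter on low counts only through the sums of Ctla2a-high cells. Xcl1, Klrd1, Klrb1b, Areg and Unc5b were among the 34, so their falls are a description. Without the filter 48 of the 48 were still called. Nkg7 stood at 132, 363 and 745 CPM in the gamma-delta T17-like cells of P45, P50 and P63, against 2030, 4012 and 1559 CPM in Ctla2a-high cells. It was lower in each of the 3 libraries and fell by 2.85 ± 0.44. Xcl1 fell by 3.63 ± 0.57, Klrd1 by 4.10 ± 0.51, Klrb1b by 4.09 and Fcer1g, the signalling chain of Fc receptors, by 2.24 ± 0.43. Areg, the epidermal growth factor relative amphiregulin, fell by 2.23 ± 0.52, and Ctsw, a protease of cytotoxic cells, by 1.59. Unc5b, a netrin receptor, had 0 UMIs in the gamma-delta T17-like cells of these libraries.

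Foxp3-positive cells, the regulatory T cells of the gate, reached 10 cells together with gamma-delta T17-like cells in P45 and P50 only. Of 1111 genes tested, 0 were higher (0.0%) and 0 lower (0.0%) by edgeR, 127 had an unadjusted p under 0.05, and DESeq2 called 0. Actn2 differed by 5.33 (adjusted p = 0.0561), Cxcr6 by 3.45 (0.0801), Il7r by 2.21 (0.109) and Il18r1 by 1.95 (0.109), and Ctla4, an inhibitory receptor of regulatory T cells, by -3.69 (0.0561). Maf and Rora differed by 0.22 and 0.26. Under 5 of the alternatives tried, 10 to 21 genes were higher and 17 to 36 lower.

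The 2 scavenger receptors divided the cells. Of the 89 cells 39 had Cd163l1 but not 5830411N06Rik, 28 had 5830411N06Rik but not Cd163l1, 3 had both and 19 neither. Of 36 cells with at least 2 Cd163l1 UMIs 1 had a UMI of the other gene, and of 17 cells with at least 2 5830411N06Rik UMIs 0 had one of Cd163l1. The rule asks for 2 UMIs over 4 genes, so a cell needs no second receptor to pass it, and the split is given as a description. Cd163l1-only and 5830411N06Rik-only cells numbered 5 and 2 in P50_Depil5D, 15 and 18 in P45, 12 and 2 in P50, 5 and 4 in P63, and 2 and 2 in P80. P50 had the highest share of Cd163l1-only cells among cells with 1 of the 2 receptors (85.7%, 57.2 to 98.2), and P45 the lowest (45.5%, 28.1 to 63.6).

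**Figure D5:**
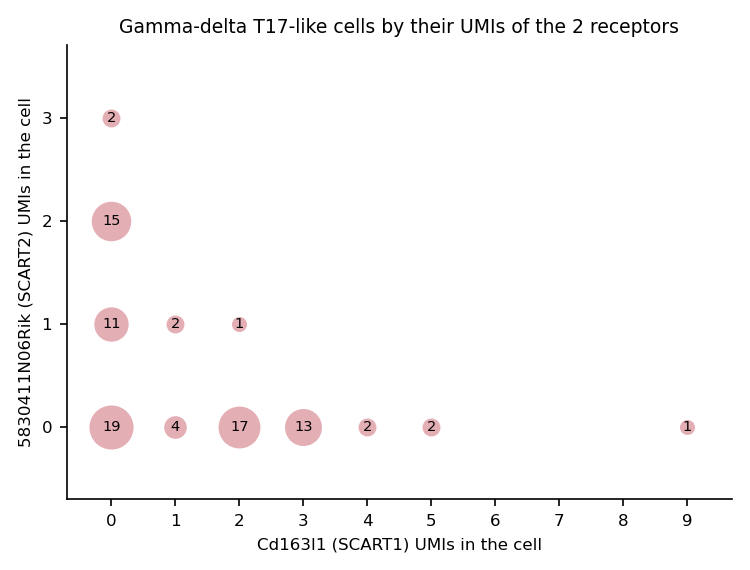
Number of gamma-delta T17-like cells (printed in each bubble) by their UMIs of Cd163l1 and of 5830411N06Rik, over all 5 libraries. Nearly all cells lie along one axis or the other, and 3 of 89 had both transcripts.

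Il17a gave 3 UMIs in 2 Cd163l1-only cells and 15 UMIs in 3 5830411N06Rik-only cells, of which 12 lay in the 1 cell of P63. Il17f gave 2 UMIs in 2 Cd163l1-only cells against 14 UMIs in 7 5830411N06Rik-only cells, a level ratio of 0.12 (0.01 to 0.52). In P45 it was 0 UMIs in 15 Cd163l1-only cells and 10 UMIs in 18 5830411N06Rik-only cells. Ccr6, a gene of the rule, gave 4 against 22 UMIs, while Il7r (32 against 34) and Actn2 (21 against 18) were seen in both kinds. Cd3d gave 75 against 35 UMIs, and Il18r1 38 against 57. Totals were 80562 UMIs in Cd163l1-only and 67251 in 5830411N06Rik-only cells. A fit over the 5 libraries tested 121 genes with 0 higher (0.0%) and 0 lower (0.0%) by edgeR, 1 at an unadjusted p under 0.05 and 0 by DESeq2, and without a filter on low counts it called Defb6 and Gzmc among 9498 genes. Gzmc gave 68 UMIs in 3 cells against 1 UMI. Cd74, a dendritic cell and B cell gene, gave 50 against 411 UMIs, 39 against 401 in P45, and its part in these ratios was not tested.

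Between libraries, the gamma-delta T17-like cells have 1 sample a group, so what follows are values with counting intervals and no test. For P50_Depil5D against P50, 503 genes had at least 10 UMIs in both libraries together, 44 with a ratio of 2 or more (8.75%) and 55 with 0.5 or less (10.9%). Cxcr6 gave 14 UMIs in 6 cells (1046 CPM) in P50_Depil5D against 8 UMIs in 5 cells (323 CPM) in P50, a ratio of 3.24 (1.27 to 8.91), where the other Cd3-positive cells had 0.94. Il18r1 gave 12 against 8 UMIs, a ratio of 2.77 (1.04 to 7.82) beside 1.15 in the others, and Il23r 6 UMIs in 3 cells against 1. Il7r (8 against 14 UMIs, ratio 1.06) and Maf (4 against 11, ratio 0.67) had intervals that held 1. Atf3, a stress-response factor, gave 0 UMIs in 9 cells of P50_Depil5D and 18 UMIs in 7 of 18 cells of P50, a ratio of 0 (0 to 0.421). Mt1, a metallothionein, gave 0 against 18 UMIs (5 cells), the same ratio and interval, while in the other Cd3-positive cells it was higher in P50_Depil5D, with a ratio of 1.65.

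P80 against P45 rested on 5040 UMIs of 4 cells against 136700 of 46. Of 1746 genes with at least 10 UMIs, 388 had a ratio of 2 or more (22.2%) and 824 one of 0.5 or less (47.2%). Many of these ratios come from 1 or 0 UMIs in P80. Gm9844, a pseudogene, gave 15 against 3 UMIs, a ratio of 136 (38.4 to 731), and was 10.4-fold higher in the other Cd3-positive cells of P80 too. Kdm6b, a histone demethylase, gave 16 UMIs in 3 cells against 13 UMIs in 12 cells, a ratio of 33.4 (15.1 to 75.4) beside 1.90 in the others. The class II genes H2-Eb1 and H2-Aa gave 1 UMI each against 319 and 248 in P45, ratios of 0.0850 and 0.109, and were also lower in the other Cd3-positive cells, at 0.419 and 0.359. For Il17a, with 0 against 8 UMIs, the interval of the ratio ran up to 15.9, so a change was not detectable at this depth.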

How the data were processed

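The deposited matrices hold whole-number UMI counts, with gene identifiers, symbols and cell barcodes, for 5 libraries, 1 per group. Reads were placed on mm10 and Seurat was used, per the submitters' processing notes. The aligner, counter and cell caller were not given in the sources used here. Of 6223 barcodes, 6162 had at least 200 genes and at most 10% mitochondrial UMIs and were kept. Library totals ran from 1019620 to 7468747 UMIs. No doublet caller was applied, and an alternative drops cells with UMIs of another lineage.

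UMIs were summed per library and class and tested with edgeR 4.0.16 (R 4.3.3; filterByExpr, TMM, quasi-likelihood, library as block because both arms share droplets), with DESeq2 1.42.0 as an alternative. Values were computed with Python 3.11.15, numpy 2.4.6, pandas 2.3.3 and scipy 1.17.1. The fit, tested on simulated data for gamma-delta T17-like over other Cd3-positive cells (4618 genes), recovered 54.1% of genes changed by a log2 of 2 and 5.05% of those changed by 1, with 3 false calls among 4421 unchanged genes. The changes were put only into genes with high summed UMIs, and all genes were simulated with a common dispersion. Recovery was therefore not measured for genes with few UMIs, nor any of these rates where dispersion differs between genes. Named genes had an adjusted p under 0.05, 1 sign in every library and at least 50 CPM in the higher arm, the 12 largest higher and 8 largest lower, plus called members of the lists and every cytokine, receptor and type 17 factor. Genes named through the lists, such as Nkg7 and Xcl1, need not have 1 sign in every library. The Cd163l1 against 5830411N06Rik fit was planned with at least 10 cells per arm and library, which fewer than 2 libraries reached, and used at least 2. Genes compared there and between libraries beyond the fixed panel (among them Il17a, Il17f, Il7r, Il23r, Il1r1, Il18r1, Cxcr6, Maf, Sox13, Zbtb16) were chosen after their values were seen. The members and lists were chosen with earlier results of these data known. Macrophage-gate cells had at least 5 C1q UMIs and keratinocyte-gate cells at least 10 keratin UMIs. Of 27998 identifiers 27645 were found in GENCODE vM21, the source of coordinates. Promoters are from RefSeq. Some results are not reported here.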

Additional observations from a re-analysis of the deposited data

How the results depend on the processing

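Against other Cd3-positive cells (39 higher, 104 lower), DESeq2 gave 19 and 43, the fit without shared barcodes 20 and 49, that without cells with UMIs of another lineage 12 and 31, a gate of 3 or more UMIs 3 and 7, and 3 or more Cd3 UMIs in both arms (added after seeing the data) 3 and 7. Without a filter on low counts 20 were higher, 9 of them among the 39. Leaving out 1 library gave 17 to 46 higher and 52 to 99 lower. Jun changed sign to 0.40 without cells with UMIs of another lineage and Fabp5 to 0.11 without P45 (-3.215 to 0.11 over the libraries left out). Against Ctla2a-high cells (30 higher, 48 lower), 24 were lower by DESeq2, 95 lower with no filter on low counts, 19 higher in cells with at least 1000 UMIs, 50 higher without cells with UMIs of another lineage, 14 higher with the stricter gate and 27 lower with 3 or more Cd3 UMIs. Leaving out 1 library gave 27 to 35 higher and 48 to 62 lower. Against Foxp3-positive cells (0 and 0), calls appeared with no filter (21 higher, 34 lower), without shared barcodes (10 and 17), with at least 1000 UMIs (17 and 36), without cells with UMIs of another lineage (18 and 21) and with the stricter gate (21 and 36). The cause of these shifts was not tested. The thinned share ratio of P80 to P45 was 1.623. The Il17a difference in CPM between P50_Depil5D and P50 was -40.4, and 0 with the stricter gate, and that between P80 and P45 was -58.5, and -21.7 after thinning.

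The arms of each fit are paired by library, whose droplets they share, so the block is part of the design. Without the block 5 genes were higher and 4 lower against other Cd3-positive cells, and 8 and 12 against Ctla2a-high cells. The planned Cd163l1 against 5830411N06Rik fit and its leave-one-out could not be fitted. With 4 to 46 cells a library, depth limits every value of a single library.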
